A study of Pleurotus tuoliensis with 9 samples.

Results

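Laccases, peroxidases and alcohol oxidases were examined in *P. tuoliensis* mycelia under heat stress. The members were taken from the descriptions of the deposited unigenes. A description had to name a laccase or multicopper oxidase, a peroxidase, an alcohol oxidase, a glucose-methanol-choline (GMC) oxidoreductase or a pyranose enzyme, and glutathione peroxidases, peroxiredoxins, copper radical oxidases and glyoxal oxidases were left out. This gave 27 of the 13953 unigenes, of which 24 had a nonzero count in every library and were tested. By description they were 6 laccases, 3 class II peroxidases, 3 dye-decolorizing peroxidases, 7 heme peroxidases, 2 haem-thiolate peroxidases, 5 aryl-alcohol oxidases and 1 pyranose dehydrogenase. The names are those of the best protein match, which was a protein of *Pleurotus eryngii* for 18 members, while 10733 of the 13953 unigenes carry a description with no function (hypothetical or uncharacterized). Further enzymes of these families may stand among the unnamed unigenes.

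Mycelia of the strain Zhongnong No.1 were grown on potato dextrose agar in the dark for 9 days at 25 °C. They were then kept for 96 h at 25 °C (CK), 32 °C (MHT, moderate heat stress) or 36 °C (SHT, severe heat stress) and collected on day 13. Each group had 3 RNA-seq libraries, each from 1 plate, and 1 initial plate gave the inoculum for all. The replicates are thus separate cultures of 1 strain, on a medium without wood. The total count was 3925786 to 6180053 per library.

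White-rot fungi such as the oyster mushrooms break down lignin, the aromatic polymer of wood, with secreted oxidases and peroxidases, while other peroxidases work inside the cell. Laccases are multicopper oxidases that take electrons from phenols and pass them to oxygen. Class II peroxidases (manganese, lignin and versatile peroxidases) and dye-decolorizing peroxidases are haem enzymes that use hydrogen peroxide to oxidize manganese ions, dyes or aromatic rings. Aryl-alcohol oxidases are flavoenzymes of the GMC family that oxidize aromatic alcohols and release hydrogen peroxide.

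At 36 °C more of these unigenes fell than rose, by a margin that changed when single libraries were left out. Expression is given as CPM, the counts scaled by TMM to a common library size. Differences are given as log2 fold changes (log2FC) with their standard error (SE) from edgeR's quasi-likelihood test. A unigene was called higher or lower where its log2FC was beyond 1 in either direction with adjusted p below 0.05, and only such differences are said to have passed, risen or fallen. In SHT&CK 3 of the 24 tested members rose and 6 fell (12.5% and 25%), beside 10.8% of all 13018 tested unigenes that rose, 10.9% that fell and 21.7% called in either direction. Without CK replicate 2, gene_22356 (a fall) and gene_26862 (a rise) lost their calls there, and gene_12174 and gene_17947 were called higher. In MHT&CK 1 member rose and 1 fell, where 3.85% of all unigenes rose, 4.32% fell and 8.17% did either, so the members were near the background there. In SHT&MHT 1 rose and 2 fell, beside 2.79%, 2.87% and 5.65% of all unigenes. The median log2FC of the members was -0.04 for MHT&CK, -0.10 for SHT&CK and -0.06 between SHT and MHT, and that of all tested unigenes was -0.00, 0.01 and -0.00. Groups did not overlap, with the heat-treated libraries higher, for 3 members in MHT&CK and 4 in SHT&CK, beside 18.4% and 27.6% of all unigenes, and with them lower for 5 and 8, beside 19.1% and 28.3%. Between the heat treatments SHT was above MHT without overlap for 5 members (15.4% of all unigenes) and below it for 4 (12.6%). Each of the 3 comparisons shares libraries with the other two, and in mycelium sampled in bulk fewer cells of a kind and less RNA per cell cannot be told apart.

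**Figure D1:**
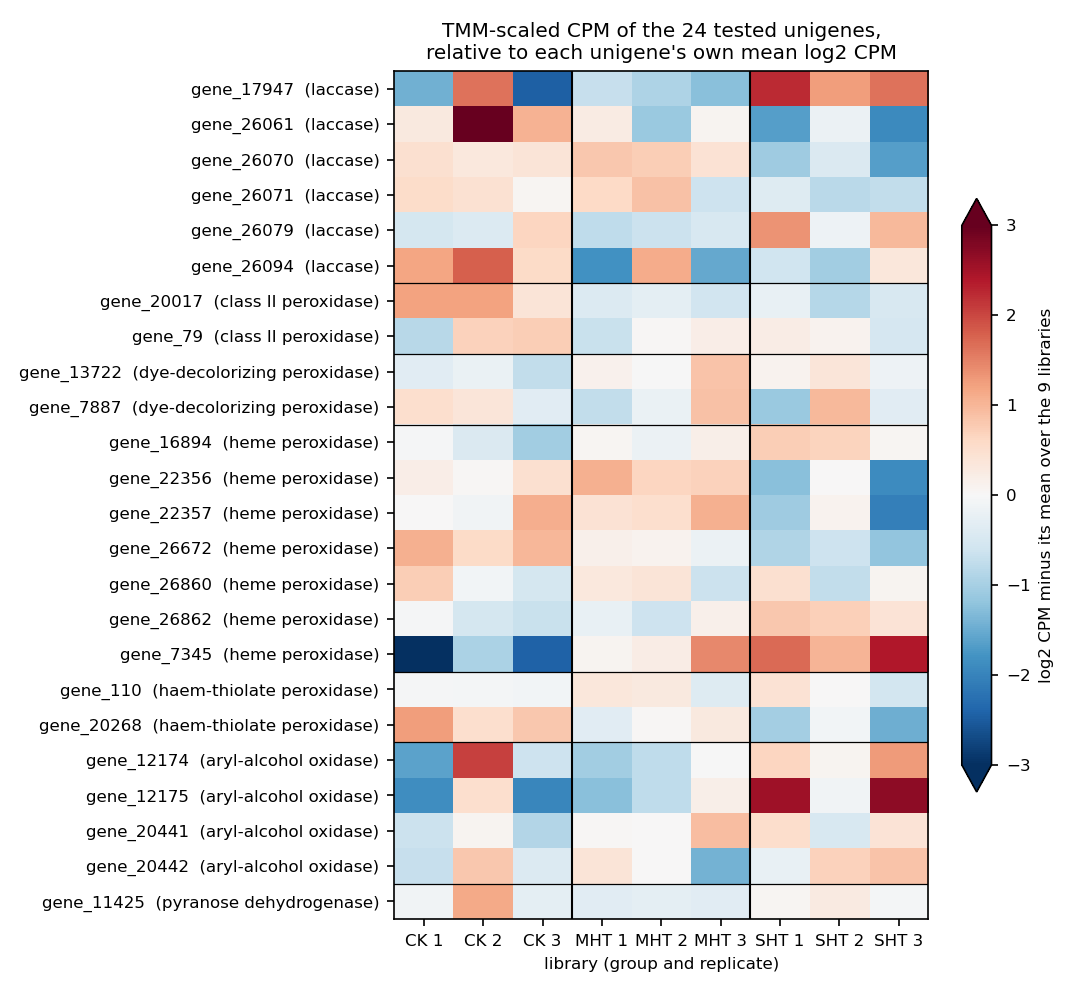
Heat map of the 24 tested unigenes (vertical axis, grouped by class) in the 9 libraries (horizontal axis). Colour gives log2 CPM minus the mean of that unigene over the 9 libraries, red above and blue below, with the scale ending at 3 in each direction. gene_7345 was lowest in the CK libraries, gene_26070 and gene_22356 were lowest in the SHT libraries, and CK replicate 2 stands above the other CK libraries for gene_12174, gene_12175, gene_17947 and gene_26061.

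Some libraries stood apart for these enzymes. CK replicate 2 had at least 2 times the CPM of the next CK library in 7 of the 24 members (29.2%), while 1.66% of all tested unigenes showed this. The 7 were gene_7345, gene_11425, gene_12174, gene_12175, gene_17947, gene_20442 and gene_26061, 3 of which are described as aryl-alcohol oxidases and 2 as laccases. SHT replicate 2 was at least 2 times above the next SHT library in 4 members and at least 2 times below it in 2, and the same was true of 1.67% and 3.78% of all unigenes. MHT replicate 3 lay at a mean distance of 73.4 from the other MHT libraries over the log2 CPM of all tested unigenes, and 61.2 from SHT replicate 2. These patterns were noticed in the data. For members above a few CPM, values without these libraries are given where they change a call or turn a fold change of over 1.

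The laccase with most counts, gene_26070, fell at 36 °C against both other groups. It is described as laccase 6 of *P. eryngii* var. *ferulae*. CPM was 1210.4, 1088 and 1137 in the CK libraries, 1528, 1448 and 1184 in MHT and 419, 642 and 279 in SHT. The SHT libraries all lay below the CK and MHT libraries, while MHT overlapped CK. The fall was 2.56-fold against CK, a log2FC of -1.36 (SE 0.275, adjusted p = 0.00251), and 3.10-fold against MHT, a log2FC of -1.63 (SE 0.277, adjusted p = 0.00525). In MHT&CK the log2FC was 0.28 (SE 0.270, adjusted p = 0.523). Both falls passed without any single library, with log2FCs from -1.72 to -1.12 in SHT&CK and from -1.99 to -1.39 in SHT&MHT.

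A further laccase, gene_26061, matched to a *P. pulmonarius* protein, also fell in SHT&CK, from a level that differed among the controls. CPM was 7.62, 57.0 and 12.9 in CK, 7.42, 2.89 and 6.63 in MHT and 1.99, 5.49 and 1.67 in SHT. Each heat-treated library was below each CK library, though CK replicate 1 and MHT replicate 1 were close. It fell 8.64-fold in SHT&CK, with a log2FC of -3.11 (SE 0.776, adjusted p = 0.0107), and of -1.78 (adjusted p = 0.0238) without CK replicate 2 and -3.82 without SHT replicate 2. In MHT&CK it was -2.21 (SE 0.723, adjusted p = 0.0673), and -0.87 (adjusted p = 0.279) without CK replicate 2. It passed without CK replicate 1, at -2.59.

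gene_17947 went the other way between the heat treatments. This laccase, matched to a *P. ostreatus* protein, was at 0.879, 7.41 and 0.437 CPM in CK, 1.48, 1.26 and 1.00 in MHT and 11.2, 5.68 and 7.41 in SHT. The SHT libraries all exceeded the MHT libraries, and CK replicate 2 lay within the range of SHT. It rose 6.36-fold in SHT&MHT, a log2FC of 2.67 (SE 0.719, adjusted p = 0.0403). The call was lost without any 1 MHT library (2.55 to 2.81) and without SHT replicate 1 (2.34) or 3 (2.72). In SHT&CK the log2FC of 1.41 did not pass (SE 0.657, adjusted p = 0.106), and without CK replicate 2 it was 3.64 (adjusted p = 9.13e-04). In MHT&CK it was -1.25 with all libraries and 0.98 without CK replicate 2, neither of which passed.

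The other 3 laccases had few counts and passed in no comparison. gene_26071 was at 4.15 to 5.86 CPM in CK, 2.61 to 7.40 in MHT and 2.27 to 3.07 in SHT, and its log2FC in SHT&CK was -0.98 (adjusted p = 0.0647). In SHT&MHT it was -1.05, and -1.37 (adjusted p = 0.0105) without MHT replicate 3. gene_26094 had a log2FC of -1.57 in SHT&CK (adjusted p = 0.0769), at 1.75 to 4.03 CPM in CK, 0.330 to 2.53 in MHT and 0.568 to 1.48 in SHT. Without MHT replicate 2 it was called lower in SHT&CK (-1.58, adjusted p = 0.0278) and in MHT&CK (-2.88, adjusted p = 0.0201, against -1.36 with all libraries), and a fit of the compared groups alone called it in SHT&CK (adjusted p = 0.0307). gene_26079 had 1.47 in SHT&MHT (adjusted p = 0.10) and 1.77 (adjusted p = 0.0435) without SHT replicate 2, at 0.495 to 0.603 CPM in MHT and 0.758 to 2.15 in SHT. Of the 6 laccases, 5 have ID numbers within 20 of another laccase. Whether the ID order follows the genome is not given in the sources used here. These 5 include gene_26070 and gene_26061 but not gene_17947.

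**Figure D2:**
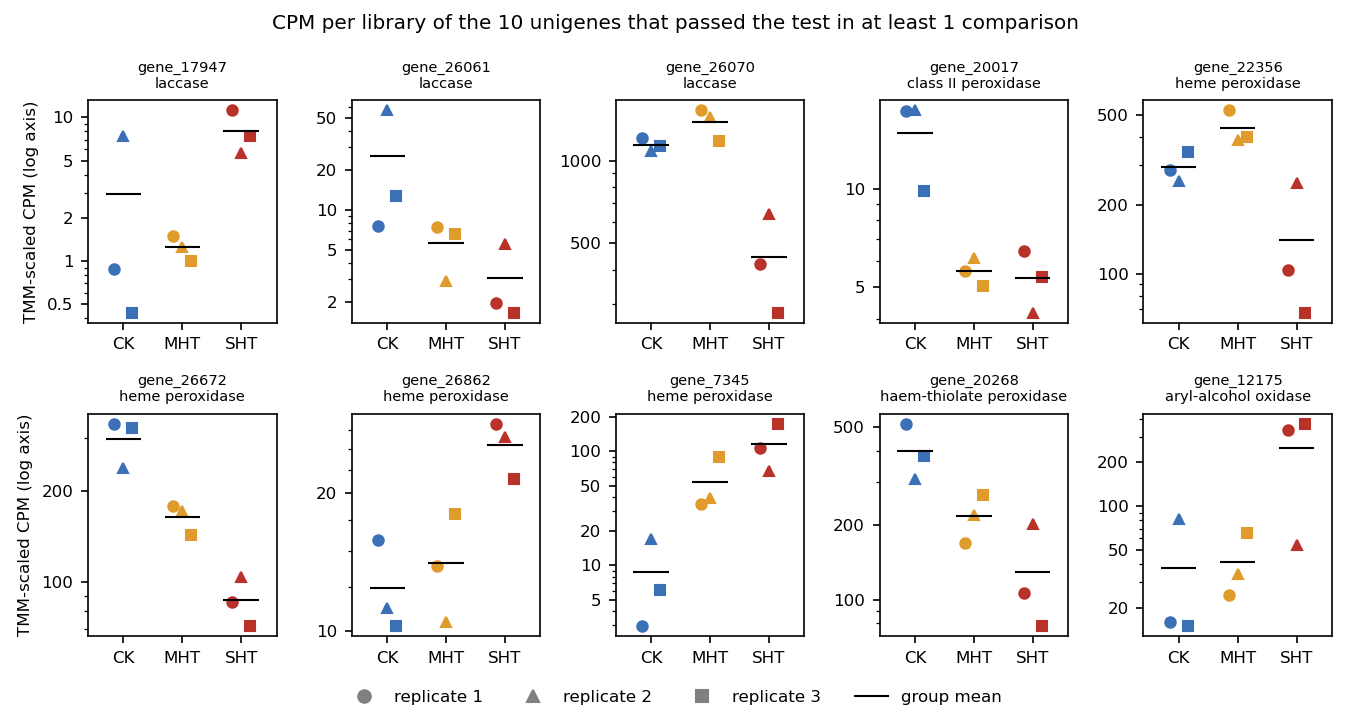
CPM per library (log axis) of the 10 unigenes that passed the test in at least 1 comparison, with CK, MHT and SHT on the horizontal axis, a marker shape for each replicate number and a line at each group's mean. For gene_26070 the SHT libraries are at 279 to 642 CPM, below all others, for gene_7345 every heat-treated library is above the CK libraries, and for gene_12175 SHT replicate 2 (53.8) is below CK replicate 2 (81.8).

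Among the class II peroxidases, the family of lignin-modifying peroxidases, 1 member had enough counts to follow, and it fell in both heat treatments. gene_20017 is described as MnP-short, a manganese peroxidase, which turns manganese ions into a diffusible oxidant. CPM was 17.3, 17.4 and 9.83 in CK, 5.61, 6.13 and 5.02 in MHT and 6.44, 4.17 and 5.37 in SHT. All heat-treated libraries were below all CK libraries, and MHT and SHT overlapped. The log2FC was -1.40 (SE 0.285, adjusted p = 0.00731) in MHT&CK and -1.46 (SE 0.286, adjusted p = 0.00212) in SHT&CK, falls of 2.63-fold and 2.75-fold. Both passed without any single library. In SHT&MHT it was -0.06 (SE 0.298, adjusted p = 0.910).

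The other two class II members were near the lower end of detection. gene_79, a partial manganese peroxidase, had 26 counts over the 9 libraries and log2FCs of -0.51, -0.41 and 0.10 across MHT&CK, SHT&CK and SHT&MHT, with SEs of 0.607 to 0.620. gene_12383, matched to the versatile peroxidase of *P. eryngii*, an enzyme that acts on both manganese ions and aromatic compounds, had 10 counts and was not tested because 2 CK libraries had none. With so few counts a change in gene_79 that was not large could have been missed, and gene_12383 could not be called.

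The dye-decolorizing peroxidase gene_13722 took the most counts of all members, 0.148% to 0.499% of a library. Its CPM was 2133, 2340.2 and 1609 in CK, 2925, 2693 and 4877 in MHT and 2915, 3442 and 2409 in SHT. Every heat-treated library was above every CK library, but neither difference passed the test. The log2FC was 0.79 (SE 0.281, adjusted p = 0.0781) in MHT&CK, 0.53 (SE 0.280, adjusted p = 0.149) in SHT&CK and -0.26 (SE 0.279, adjusted p = 0.561) in SHT&MHT, and the last was 0.057 without MHT replicate 3. gene_7887 had 82 counts and log2FCs of -0.10, -0.14 and -0.05. gene_18483 had 30 counts, 2, 1 and 1 in CK, 6, 6 and 0 in MHT and 5, 7 and 2 in SHT, and was not tested because of the zero.

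Heme peroxidase, as a description, names haem enzymes that act with peroxide and no narrower family. These unigenes held both the largest rise and the fall with the smallest adjusted p among the members. Of the 7, 2 rose and 2 fell in SHT&CK, where 10.8% and 10.9% of all unigenes did. In MHT&CK 1 rose (3.85% of all unigenes) and in SHT&MHT 1 fell (2.87%). gene_7345 is matched to a heme peroxidase of *P. ostreatus*, and the study itself lists it as a mitochondrial cytochrome-c peroxidase. Such enzymes, known from yeast, reduce hydrogen peroxide with electrons from cytochrome c inside the cell and are not secreted. gene_7345 was at 2.93, 17.2 and 6.11 CPM in CK, 34.8, 38.8 and 89.2 in MHT and 107, 67.2 and 174 in SHT. All heat-treated libraries exceeded all CK libraries, and MHT replicate 3 was above SHT replicate 2. It rose 6.02-fold in MHT&CK, a log2FC of 2.59 (SE 0.608, adjusted p = 0.0197), and 12.9-fold in SHT&CK, a log2FC of 3.69 (SE 0.621, adjusted p = 0.00157). Without CK replicate 2 these were 3.54 and 4.64. The first did not pass without CK replicate 3 (2.38) or MHT replicate 3 (2.02). In SHT&MHT the log2FC was 1.10 (SE 0.539, adjusted p = 0.205).

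gene_26672 was lower at each higher temperature. CPM was 334, 239 and 322 in CK, 178, 172 and 143 in MHT and 85.6, 104 and 71.3 in SHT, so no 2 groups overlapped. The fall in SHT&CK was 3.44-fold, with a log2FC of -1.78 (SE 0.202, adjusted p = 9.43e-05). The steps from CK to MHT (-0.86, adjusted p = 0.0128) and from MHT to SHT (-0.92, adjusted p = 0.0157) had adjusted p under 0.05 but lay under the fold threshold, and the second was past it without MHT replicate 3 (-1.01) or SHT replicate 2 (-1.07).

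gene_22356 had its highest level at 32 °C and its lowest at 36 °C. CPM was 286, 256 and 345 in CK, 523, 388 and 398 in MHT and 104, 249.7 and 67.4 in SHT. The 3 groups did not overlap, and SHT replicate 2 lay just under the lowest CK library. The log2FC was 0.56 (SE 0.379, adjusted p = 0.341) in MHT&CK, -1.07 (SE 0.383, adjusted p = 0.0434) in SHT&CK and -1.64 (SE 0.388, adjusted p = 0.0254) in SHT&MHT. The fall in SHT&CK passed in 1 of the 9 fits with a library left out, that without SHT replicate 2 (-1.79), and was lost when any CK library (-1.17 to -0.95), any MHT library (-1.08 to -1.07) or SHT replicate 1 (-0.91) or 3 (-0.75) was left out. The fall in SHT&MHT was lost without MHT replicate 1 (-1.48) or 2 (-1.72) and without SHT replicate 1 (-1.47) or 3 (-1.31), and was -2.35 without SHT replicate 2. Its neighbour in ID number, gene_22357, matched to the same protein, had 2.91, 6.63 and 1.48 CPM in SHT and log2FCs of 0.24, -1.20 (adjusted p = 0.0641) and -1.43 (adjusted p = 0.0703) that did not pass. Without SHT replicate 2 it was called lower in SHT&CK (-1.90, adjusted p = 0.00969) and SHT&MHT (-2.13, adjusted p = 0.0142), and DESeq2 called both with all libraries (adjusted p = 0.0373 and 0.0261). The counts of such a pair may be those of 1 gene, and their sum fell in SHT&CK (-1.08, adjusted p = 0.0433) and SHT&MHT (-1.63, adjusted p = 0.0258).

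gene_26862 and gene_16894 share a protein match without being neighbours in ID number, and both were highest at 36 °C. gene_26862 was at 15.8, 11.2 and 10.3 CPM in CK, 13.9, 10.5 and 18.1 in MHT and 28.4, 26.5 and 21.5 in SHT. The SHT libraries were above all others. It rose 2.06-fold in SHT&CK, a log2FC of 1.04 (SE 0.254, adjusted p = 0.00694) that was under the fold threshold without CK replicate 2 (0.98), CK replicate 3 (0.92) or SHT replicate 1 (0.95). In SHT&MHT it had 0.85 (adjusted p = 0.0481), and 1.06 without MHT replicate 3. gene_16894 was at 3.49 to 7.03 CPM in CK, 6.31 to 8.04 in MHT and 7.41 to 12.0 in SHT. Its log2FC in SHT&CK of 0.98 (adjusted p = 0.0230) was just under the threshold and was past it without CK replicate 1 (1.21) or SHT replicate 3 (1.15). Reads that match both cannot be told apart from these counts. gene_26860 was at 1.89 to 5.27 CPM over all libraries, with log2FCs of 0.01, -0.05 and -0.06.

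**Figure D3:**
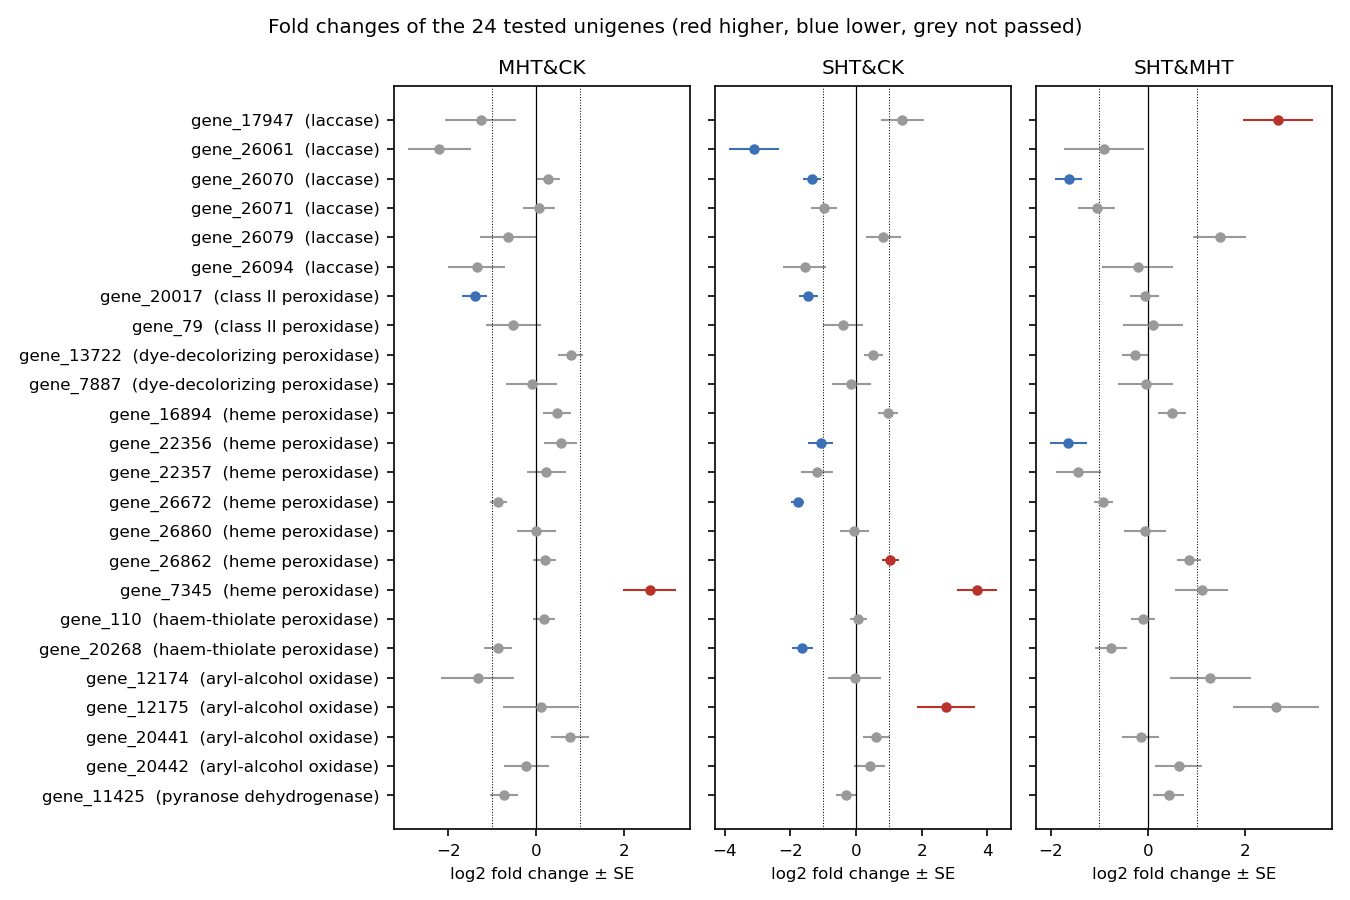
Log2FC (horizontal axis, bars of 1 SE) of the 24 tested unigenes across MHT&CK, SHT&CK and SHT&MHT, red for a rise and blue for a fall that passed the test and grey otherwise, with dotted lines at -1 and 1. Most calls are in SHT&CK, where 3 unigenes rose and 6 fell, and within laccases, heme peroxidases and aryl-alcohol oxidases the values lie on both sides of 0.

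The haem-thiolate peroxidases, named for the sulfur ligand of their haem, include the chloroperoxidases and insert oxygen or halogen into organic compounds. gene_20268 fell in SHT&CK. CPM was 513, 307 and 379 in CK, 169.6, 220.4 and 264 in MHT and 107, 202 and 77.9 in SHT. The CK libraries were above all heat-treated ones, and SHT replicate 2 lay within MHT. The log2FC was -1.63 (SE 0.328, adjusted p = 0.00257) in SHT&CK, -0.87 (SE 0.322, adjusted p = 0.0878) in MHT&CK and -0.76 (SE 0.323, adjusted p = 0.144) in SHT&MHT, of which the last passed without SHT replicate 2, at -1.24 (adjusted p = 0.0144). Without CK replicate 2 and SHT replicate 2 together it also passed in MHT&CK, at -1.03 (adjusted p = 0.0228).

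gene_110, described as a chloroperoxidase, had the steadiest controls of the members with over 10 CPM, at 100.2, 98.3 and 96.9 CPM. It was at 129.7, 126 and 78.6 in MHT and 138, 103 and 69.2 in SHT. The heat-treated libraries lay on both sides of the controls, and the log2FCs were 0.18, 0.07 and -0.11 across MHT&CK, SHT&CK and SHT&MHT, each with an SE of 0.250 to 0.251.

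Aryl-alcohol oxidases supply hydrogen peroxide to the peroxidases. Of the 5 members, gene_12175 passed in SHT&CK, with 2 of the 3 SHT libraries high. Its CPM was 15.8, 81.8 and 14.8 in CK, 24.3, 33.9 and 64.7 in MHT and 335, 53.8 and 368 in SHT. SHT replicates 1 and 3 were above all other libraries, and SHT replicate 2 lay within the range of CK and MHT. The rise in SHT&CK was 6.67-fold, a log2FC of 2.74 (SE 0.891, adjusted p = 0.0390). It was 4.04 (adjusted p = 0.00316) without CK replicate 2, 3.21 (adjusted p = 0.00930) without SHT replicate 2 and 4.52 (adjusted p = 1.28e-04) without both, an alternative added after the data were seen. The call was lost when CK replicate 1 (2.37) or 3 (2.36), any MHT library (2.73 to 2.74) or SHT replicate 1 (2.47) or 3 (2.36) was left out. In SHT&MHT it was 2.63 (SE 0.883, adjusted p = 0.0953) and passed without CK replicate 2 (2.63) or SHT replicate 2 (3.10). In MHT&CK it was 0.11 (SE 0.861, adjusted p = 0.947), and 1.41 (adjusted p = 0.0363) without both.

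gene_12174, the neighbour of gene_12175 in ID number with the same description (an aryl-alcohol oxidase-like protein) but another protein match, was at 8.50, 108 and 16.8 CPM in CK, 12.5, 15.3 and 25.7 in MHT and 40.3, 27.3 and 62.6 in SHT. CK replicate 2 was the highest of the 9 libraries and CK replicate 1 the lowest. No comparison passed with all libraries, and the log2FCs were -1.33, -0.05 and 1.29 with SEs of 0.799 to 0.833. Without CK replicate 2 it rose in SHT&CK, with 1.76 (adjusted p = 0.0111), and the value in MHT&CK turned to 0.47 (adjusted p = 0.516). Without both replicates 2 it was also called higher in SHT&MHT (1.53, adjusted p = 0.0208). Summed, gene_12174 and gene_12175 had a log2FC of 1.85 in SHT&CK (adjusted p = 0.128).

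gene_20441 and gene_20442, a pair of neighbours matched to the same aryl-alcohol oxidase precursor, were at 1.41 to 6.85 CPM over all libraries and passed in no comparison. Their sum had log2FCs of 0.24, 0.50 and 0.26. The fifth, gene_12177, had 27 counts, was at 0 in CK replicate 1 and was not tested. gene_11425, a pyranose dehydrogenase, a flavoenzyme of the GMC family that oxidizes sugars and reduces quinones, was at 16.7, 39.4 and 14.6 CPM in CK, 14.2, 14.6 and 14.3 in MHT and 18.9, 21.6 and 17.4 in SHT. The MHT libraries were all below the others, though MHT replicate 2 (14.61) and CK replicate 3 (14.63) were nearly equal. Its log2FCs of -0.72, -0.30 and 0.43 did not pass, and that in SHT&CK was 0.30 without CK replicate 2.

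The 10 members that passed in at least 1 comparison were 3 laccases, 4 heme peroxidases and 1 each of the class II peroxidases, haem-thiolate peroxidases and aryl-alcohol oxidases. Of these, 5 were called in SHT&CK only, 2 in MHT&CK and SHT&CK, 2 in SHT&CK and SHT&MHT and 1 in SHT&MHT only. Calls were also most frequent in SHT&CK among all tested unigenes (21.7%, and 8.17% in MHT&CK and 5.65% in SHT&MHT). The shares of all unigenes called in at least 1 comparison, or in each combination, were not counted. Among the members, gene_7345 and gene_20017 were called at both temperatures against CK, the first higher and the second lower. Fitted on the 6 compared libraries alone, the SHT&CK calls of gene_26061 (adjusted p = 0.0531), gene_22356 (adjusted p = 0.136) and gene_12175 (adjusted p = 0.111) were lost, as was that of gene_22356 in SHT&MHT (log2FC -1.65). gene_26070 and gene_22356 were lower at 36 °C against both other groups. Just past the threshold, gene_22356 in SHT&CK was also lost under upper-quartile scaling (adjusted p = 0.0511) and gene_12175 with no filter on zeros (adjusted p = 0.0563). By group means, 7 of the 24 tested members were ordered CK over MHT over SHT (29.2%, and 27.7% of all unigenes), 4 SHT over MHT over CK (16.7% and 27.3%) and 4 MHT over CK over SHT (16.7% and 10.6%).

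**Figure D4:**
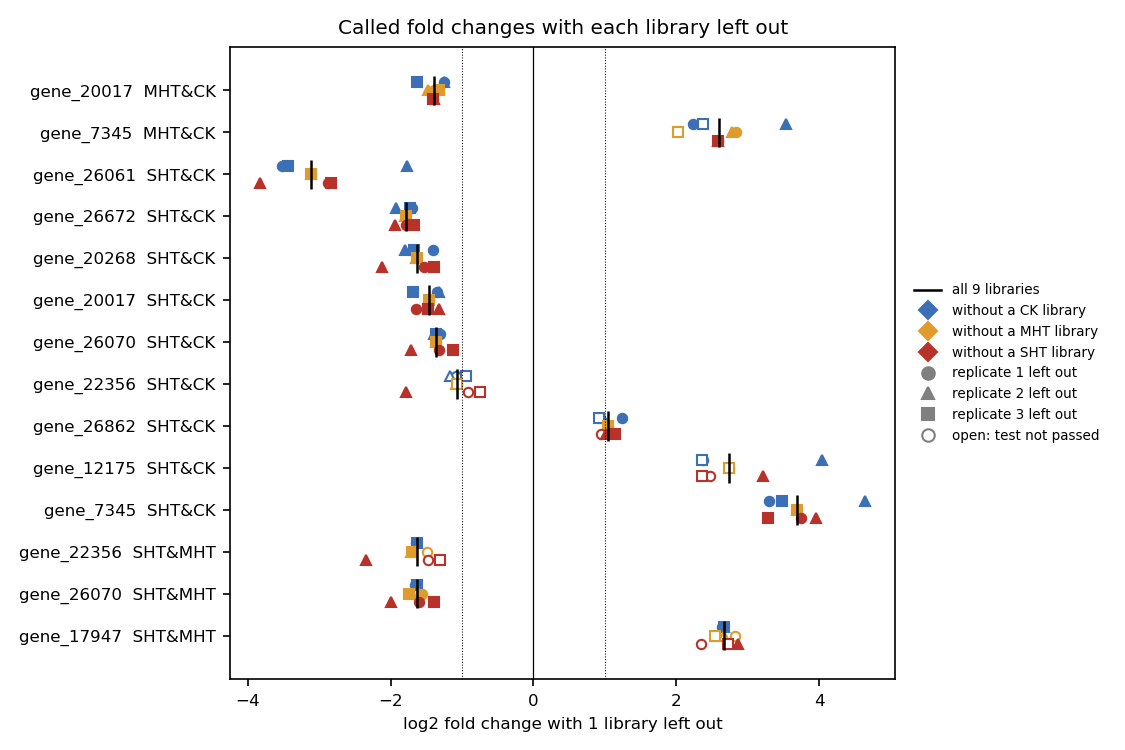
Log2FC of each call (rows) with 1 library left out (markers coloured by the group and shaped by the replicate left out, open where the test was not passed) and with all 9 libraries (black line). gene_26070, gene_20017, gene_26672, gene_20268 and gene_26061 kept each call they had, and gene_7345 kept its call in SHT&CK, while gene_22356, gene_12175 and gene_17947 lost theirs in 4 or more of the 9 fits.

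As a share of all counts in a library, the 27 members took 0.368% to 0.443% in CK, 0.524% to 0.737% in MHT and 0.393% to 0.553% in SHT. gene_13722 and gene_26070 carried most of this. The 25 other members together took 0.116% to 0.120% in CK, 0.107% to 0.117% in MHT and 0.101% to 0.112% in SHT. These are shares of the counts before TMM scaling, whose factors were 0.870 to 0.942 in CK, 0.981 to 1.02 in MHT and 1.07 to 1.11 in SHT.

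Enzymes that also make, remove or depend on hydrogen peroxide, copper or iron were counted from lists matched by description, and the few calls in each list are read against the shares of all unigenes called (8.17% in MHT&CK, 21.7% in SHT&CK and 5.65% in SHT&MHT). Of 9 copper radical oxidases, which also release hydrogen peroxide, 8 were tested, and gene_422 alone passed, at 199 to 884 CPM in CK, 5400.4 to 9060.0 in MHT and 1086 to 2701 in SHT. It rose in MHT&CK (3.88, adjusted p = 0.00194) and SHT&CK (2.16, adjusted p = 0.00923), with no overlap between the 3 groups. Of 2 catalases, which remove hydrogen peroxide, gene_6329 fell in MHT&CK (-1.02, adjusted p = 0.00949). In SHT&CK gene_6329 had -0.61 (adjusted p = 0.0407), under the fold threshold, at 1227 to 1486 CPM in CK and 723 to 1050 in SHT. The other catalase, gene_154, had 1.74 and 2.46 in MHT&CK and SHT&CK, which did not pass (adjusted p = 0.286 and 0.0918). Of 2 lytic polysaccharide monooxygenases of glycoside hydrolase family 61, which cut cellulose by oxidation, 1 was tested. This was gene_19662, which fell in SHT&CK (-1.17, adjusted p = 0.0412) at a low level, 1.97 to 3.81 CPM in CK and 0.926 to 1.70 in SHT. Neither of the 2 unigenes of oxalate metabolism nor the Ctr copper transporter passed in any comparison.

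Of 14 unigenes of iron and haem supply, 1 rose and 2 fell in SHT&CK and none passed in the other two comparisons, a share in SHT&CK near the 21.7% of all unigenes. The list includes 2 zinc/iron permeases. An iron permease FTR1, gene_8210 (-1.50, adjusted p = 0.00293), and a ferroxidase that works beside such permeases in yeast, gene_8211 (-1.45, adjusted p = 0.00859), fell. gene_8211 was at 24.9, 84.5 and 60.5 CPM in CK and 17.2, 26.0 and 19.6 in SHT, with SHT replicate 2 above CK replicate 1. A further ferroxidase, gene_8213, had 0.59 (adjusted p = 0.0326), under the fold threshold, at a mean of 18.2 CPM in CK and 27.4 in SHT. Protoporphyrinogen oxidase, gene_22197, an enzyme near the end of haem synthesis, rose (1.30, adjusted p = 2.12e-04). Its neighbour in ID number, gene_22196, is described as the same enzyme and had -0.60 (adjusted p = 0.0762), with a mean of 259.8 CPM in CK and 172 in SHT. In SHT&CK porphobilinogen deaminase, gene_13079, had 0.92 (adjusted p = 0.00431), under the fold threshold. The coproporphyrinogen-III oxidases gene_10996 (0.69, adjusted p = 0.0345) and gene_25611 (0.61, adjusted p = 0.0182) were likewise under it. The other haem synthesis unigenes, gene_932, gene_9700, gene_14452 and gene_14453, had -0.05 to 0.22 (adjusted p = 0.473 to 0.880). No description matched cellobiose dehydrogenase, superoxide dismutase, quinone reductase, aryl-alcohol dehydrogenase or the enzymes of methanol and formate use.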

How the data were processed

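Per the labels and the methods of the study, the authors used fastp for trimming, Bowtie2 to discard rRNA reads, HISAT2 for alignment to the genome of *P. tuoliensis* strain JKBL130LB, and StringTie for assembly and counts. The sources used here give neither tool versions nor whether counting used strand. They deposited whole-number counts per unigene, not normalized, with a BLASTX match in the NR database as description.

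From these counts, unigenes with a zero in any library were dropped, as in the study. The study also left out unigenes without an annotation in the NR database, a step not taken here, so the tested sets differ. The rest were scaled by TMM and compared with edgeR 4.0.16 (R 4.3.3) by its quasi-likelihood test with robust dispersions, in 1 model over the 9 libraries with a term for group alone and Benjamini-Hochberg adjustment over all 13018 unigenes tested. The study used DESeq2, which was run here as an alternative (1.42.0). Calls needed adjusted p below 0.05 and a log2 fold change beyond 1 in either direction. Means, SDs and ranges are of TMM-scaled CPM, and distances use log2 CPM (prior count 2). The standard error is the fold change over the root of the F statistic. The script was tested on simulated data. CPM is not corrected for length, so levels are not compared between unigenes. No sequence of the members is given in the sources used here.

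The members and lists were chosen with earlier results of these data known. The unigenes named with values were to be every member called in at least 1 comparison, the member with the largest change in SHT&CK in a class without a call, and untested members with at least 30 counts. Others are named besides. Classes follow the description, with heme-thiolate and chloroperoxidase put together after the descriptions were seen. Alternatives were other tools, scalings and filters, fits of the compared groups alone, a replicate block, leaving out each library, other thresholds and neighbouring unigenes summed.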

Additional observations from a re-analysis of the deposited data

How the results depend on the processing

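Counts of members that rose or fell moved by over 1.5 times under these alternatives. In MHT&CK 1 rose, and 0 did at an adjusted p under 0.01. There 1 fell, and 2 did at an adjusted p under 0.05 with no fold threshold. In SHT&MHT 1 rose, while DESeq2, a fit of the compared groups only and an adjusted p under 0.05 alone gave 2 each, and the replicate block and an adjusted p under 0.01 gave 0. In SHT&MHT 2 fell, and a fit of the compared groups only and an adjusted p under 0.01 gave 1 each. Without CK replicate 2 and SHT replicate 2 together, an alternative chosen after seeing the data, 2 rose and 2 fell in MHT&CK and 3 rose and 5 fell in SHT&MHT. Of all tested unigenes, calls in either direction in MHT&CK were 14.9% at adjusted p under 0.05 alone and 4.85% under 0.01. Without both libraries this share was 8.9%. In SHT&MHT the shares were 9.75%, 2.19% and 7.87% in the same order. They were 6.81% with DESeq2, 4.15% for the compared groups only and 4.92% with the replicate block.

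With each library left out in turn, the members that rose numbered 0 to 1 in MHT&CK, 1 to 4 in SHT&CK and 0 to 3 in SHT&MHT, and those that fell 1 to 2, 5 to 7 and 1 to 5. The share of all tested unigenes called in either direction moved in the same fits. It ran from 5.82% to 8.73% in MHT&CK, 18.3% to 22.8% in SHT&CK and 2.14% (no SHT replicate 3) to 11% (no MHT replicate 3) in SHT&MHT. RLE and upper-quartile scaling, filterByExpr, no filter on zeros and summed neighbours kept these counts within 1.5 times. Among the unigenes named for a call or as the main one of their class, the fold changes that changed sign did not pass with all libraries. Of the other members, gene_12174 in MHT&CK turned from -1.33 to 0.47 without CK replicate 2, and further fold changes near 0 also turned. With 1 library left out, gene_12175 in MHT&CK ran from -0.38 (no MHT replicate 3) to 1.41 (no CK replicate 2), and was -0.22 without CK replicate 1 and -0.27 without CK replicate 3. gene_20017 in SHT&MHT ran from -0.24 to 0.076, the latter without SHT replicate 2 and 0.082 without both replicates 2, and was 0.0042 when MHT replicate 2 was dropped. gene_17947 in MHT&CK ran from -1.78 to 0.98, the latter without CK replicate 2, alone or with SHT replicate 2. gene_26862 in MHT&CK ran from -0.016 to 0.41 and gene_13722 in SHT&MHT from -0.42 to 0.057, both turning without MHT replicate 3. gene_11425 in SHT&CK ran from -0.55 to 0.30, the latter without CK replicate 2, and was 0.22 without both. The causes were not tested.

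Same replicate numbers did not pair libraries: the deviations of same-numbered libraries correlated at -0.23 to 0.44, over 0.1 in 1 of 9 pairs, and 2 of 9 libraries correlated best with their own number. As a block the number lowered the members called from 9 to 8 in SHT&CK (gene_12175 lost, at 2.83) and from 3 to 2 in SHT&MHT (gene_17947 lost, at 2.76), and left 2 in MHT&CK. Of all tested unigenes, 21.3%, 4.92% and 7.6% were called with the block and 21.7%, 5.65% and 8.17% without it. Depth limits the members with few counts: 4 of the 24 tested had a mean count under 10.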
